A study of Homo sapiens with 26 samples.

Results

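The stretch of human chromosome 11 that holds the genes ZBTB16 and NNMT carried 10 of the 10740 regions at which binding of the glucocorticoid receptor (GR) was measured by chromatin immunoprecipitation with sequencing (ChIP-seq). The members are all regions of the authors' deposited table that start between chr11:113950000 and 114400000 in the hg38 build, and they are named R1 to R10 here in order along the chromosome. The locus was selected on its GR binding intensities over the 6 groups, with earlier results of the same table known, so its values below are a description and carry no test. A window 100 kb wider on each side held the same number of regions, 10. Of the 10 regions the authors placed 3 in the class they call increasing and 7 in the class unchanged, and none in the class decreasing. The sources used here do not say how the authors drew these classes.

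The cells were A549, an established human lung carcinoma line with features of alveolar type II epithelium. All were infected with an adenovirus, either Ad-IκBαΔN, which delivers a form of the NF-κB inhibitor IκBα that resists degradation, or Ad-GFP, the control virus carrying green fluorescent protein. Cells of each virus were treated for 1 h with 1 ng/ml interleukin-1β plus 300 nM budesonide (IL1B+Bud), with 300 nM budesonide alone (Bud), or left unstimulated (NS), after a night without serum. Budesonide is a synthetic glucocorticoid, and interleukin-1β is an inflammatory cytokine that activates NF-κB. Per the labels each of these 6 groups had 2 GR libraries, rep 1 and rep 2, but the table holds 1 value per region and group. There is therefore no replicate check, SD, n or p for any difference between groups, and "at least 2-fold" below is only a size.

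GR is a transcription factor that enters the nucleus once a glucocorticoid binds it and then attaches to DNA, often as a dimer on a glucocorticoid response element (GRE), an inverted repeat of 2 half-sites. ZBTB16, also called PLZF, is a transcription factor of the BTB zinc-finger family and is known as a gene that glucocorticoids induce in many human cell types. NNMT is nicotinamide N-methyltransferase, an enzyme that uses S-adenosylmethionine to methylate nicotinamide, and it lies just downstream of ZBTB16 on the same strand.

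The regions were 400 bp wide and spanned 272 kb. R1 (chr11:114044007-114044406) lay 15.5 kb upstream of the start of the canonical ZBTB16 transcript. The next 6 regions, R2 to R7, lay inside ZBTB16 within 25.2 kb of each other. R2 (chr11:114154460-114154859) was in intron 2, and R3 (chr11:114160005-114160404), R4 (chr11:114162798-114163197), R5 (chr11:114163930-114164329), R6 (chr11:114171329-114171728) and R7 (chr11:114179221-114179620) were in intron 3. They sat between 94.9 kb (R2) and 119.7 kb (R7) downstream of the canonical start site. Alternative ZBTB16 transcripts begin 23 bp after the end of R3 and 1146 bp after the end of R7, and R3 also overlaps an exon of an antisense long noncoding RNA. R8 (chr11:114294829-114295228) was centred 1.37 kb upstream of the canonical NNMT start. R9 (chr11:114303955-114304354) was in NNMT intron 2, 7.76 kb past that start, and R10 (chr11:114315759-114316158) lay 2.42 kb past the end of NNMT. Longer NNMT transcripts start just after the end of ZBTB16, so R8 is also inside the NNMT gene, and a rule that takes the nearest gene start links R3 to R7 to NNMT although they lie in ZBTB16 introns. Positions are in hg38 with GENCODE 44 annotation.

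**Figure D1:**
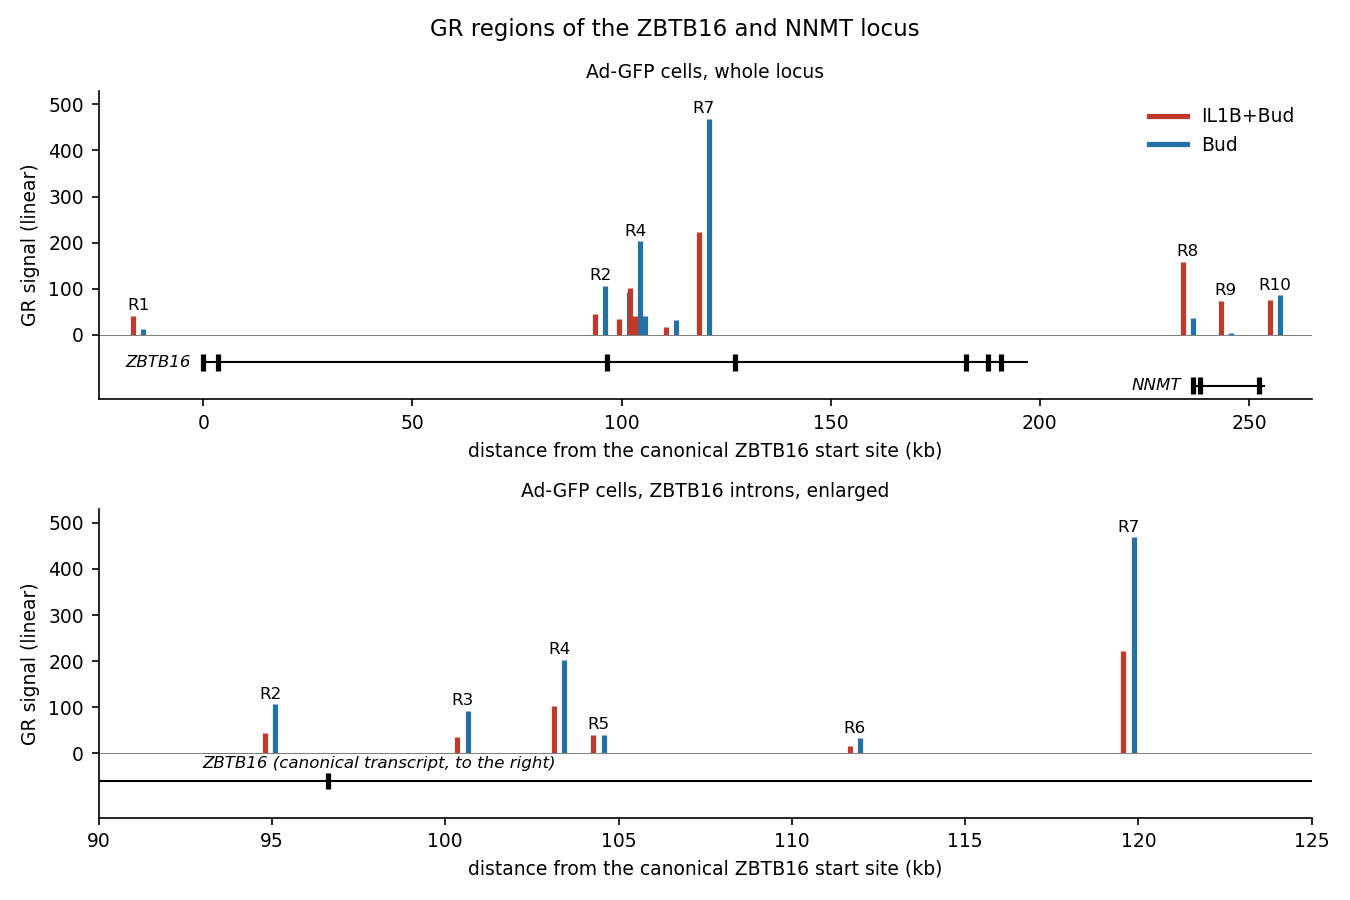
GR signal (linear scale, vertical axis) of Ad-GFP cells given IL1B+Bud or Bud against distance in kb from the canonical ZBTB16 start, for the whole locus (top) and the ZBTB16 introns (bottom), with exons as black ticks. The 2 bars of a region are drawn side by side. R7 reached 222 with IL1B+Bud and 469 with Bud, while at R8 and R9 the bar for IL1B+Bud is the taller one.

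The sequences that go with the 2 kinds of region are shown first. R7 had the highest budesonide signal of the locus, and the best fits to a GRE in R4 and R5 were the closest of the 10 regions. Capitals mark matches to the GRE, AGAACA and TGTTCT with any 3 bases between them, in R7 with 3 mismatches in the 12 fixed bases and in R4 and R5 with 2. The limit of 3 mismatches was chosen after seeing the data. A fit that close was in 45.1% of all regions and in 23.6% of windows of the same width 5 kb upstream. The intron regions R3 and R6 held none, with at least 4 mismatches. All are the plus strand of hg38, read from 5′ to 3′.
R7, chr11:114179303-114179558: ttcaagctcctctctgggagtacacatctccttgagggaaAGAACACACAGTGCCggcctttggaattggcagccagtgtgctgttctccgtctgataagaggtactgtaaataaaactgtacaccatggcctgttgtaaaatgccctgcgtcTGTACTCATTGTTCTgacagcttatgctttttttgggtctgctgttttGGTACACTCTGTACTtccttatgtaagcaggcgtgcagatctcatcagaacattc
R4, chr11:114162976-114163070: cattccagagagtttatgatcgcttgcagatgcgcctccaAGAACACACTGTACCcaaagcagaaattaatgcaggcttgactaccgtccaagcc
R5, chr11:114164077-114164171: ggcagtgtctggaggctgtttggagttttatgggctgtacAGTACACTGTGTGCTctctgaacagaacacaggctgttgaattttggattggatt

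Counted from 1 at the 5′ end of the GRE, the consensus base first, the match in R4 differed by T13A and T15C and the match in R5 by A3T and T13G. The first match in R7 differed by T10A, T13G and T15C, the second by A1T, A3T and A6T, and the third by A1G, A3T and T13A.

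R1 and R9, 2 of the 3 regions of the increasing class, each held a match to the κB consensus, the DNA element of NF-κB, here in capitals. The match lay 1 base from the region's middle in R1 and 8 bases from it in R9. R8, the third, held none. Its capitals mark the cAMP response element TGACGTCA, an element of CREB and ATF factors, which was looked for only after the sequence of R8 had been read.
R1, chr11:114044161-114044250: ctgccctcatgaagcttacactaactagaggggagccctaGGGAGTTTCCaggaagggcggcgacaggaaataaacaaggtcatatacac
R9, chr11:114304102-114304191: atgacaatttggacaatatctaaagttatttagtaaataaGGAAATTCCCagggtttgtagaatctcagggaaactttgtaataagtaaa
R8, chr11:114295004-114295091: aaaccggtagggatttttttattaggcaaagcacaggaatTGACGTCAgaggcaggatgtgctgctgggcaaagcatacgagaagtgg

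The values are given below as GR signal on the linear scale, that is 2 raised to the deposited log2 value, less 1. Differences are on the deposited scale of log2(signal + 1). Over all 10740 regions the median signal was 23.6 with IL1B+Bud, 21.6 with Bud and 7.79 with NS in Ad-IκBαΔN cells, and 45.7 with IL1B+Bud, 21.7 with Bud and 7.58 with NS in Ad-GFP cells. The scale of the values was not the same in every group, for a reason that the sources used here do not give. Differences between groups are therefore also given under other scalings where a count or a call changed most, and smaller changes are not all listed.

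With budesonide alone, GR signal was high at most of the ZBTB16 intron regions and downstream of NNMT in cells of both viruses. R7 was the leading region, with a signal of 463 with IL1B+Bud, 345 with Bud and 6.11 with NS in Ad-IκBαΔN cells, against 222 with IL1B+Bud, 469 with Bud and 6.40 with NS in Ad-GFP cells. Without stimulation R7 was below the median of all regions, and with Bud it was among the highest regions in the table, ranking 19 of 10740 in Ad-IκBαΔN cells and 16 in Ad-GFP cells. Its difference between Bud and NS ranked 10 of 10740 in both viruses, 48.6-fold in Ad-IκBαΔN and 63.5-fold in Ad-GFP on the scale of signal + 1.

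R4 was the second highest region with Bud in both viruses. Its signal was 164 with IL1B+Bud, 173 with Bud and 5.15 with NS in Ad-IκBαΔN cells, and 102 with IL1B+Bud, 203 with Bud and 9.22 with NS in Ad-GFP cells. It ranked 130 of 10740 with Bud in both viruses, 28.3-fold above NS in Ad-IκBαΔN and 20.0-fold in Ad-GFP. R2 followed with 114 with IL1B+Bud, 89.6 with Bud and 7.57 with NS in Ad-IκBαΔN cells, and with 44.6 with IL1B+Bud, 107 with Bud and 9.42 with NS in Ad-GFP cells. Like R4, it was high with Bud in both viruses and low in NS. R3, beside the start of an alternative ZBTB16 transcript, had 80.85 with IL1B+Bud, 76.1 with Bud and 8.58 with NS in Ad-IκBαΔN cells, and 35.3 with IL1B+Bud, 92.0 with Bud and 3.78 with NS in Ad-GFP cells.

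The remaining intron regions were lower. R5, which lies 0.732 kb from R4, had 72.9 with IL1B+Bud, 41.3 with Bud and 8.60 with NS in Ad-IκBαΔN cells, and 40.1 with IL1B+Bud, 40.5 with Bud and 3.42 with NS in Ad-GFP cells. As deposited, its signal was nearly the same in both treated groups of Ad-GFP cells. R6 had 35.1 with IL1B+Bud, 26.5 with Bud and 7.29 with NS in Ad-IκBαΔN cells, and 16.4 with IL1B+Bud, 32.6 with Bud and 2.38 with NS in Ad-GFP cells. It was the weakest of the 6 with Bud in both viruses, and it was then below R8 near the NNMT start.

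Downstream of NNMT, R10 had 93.2 with IL1B+Bud, 75.7 with Bud and 9.49 with NS in Ad-IκBαΔN cells, and 75.8 with IL1B+Bud, 85.3 with Bud and 4.75 with NS in Ad-GFP cells. It was high with Bud in both viruses.

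Near the NNMT start the picture was different. R8 had 23.5 with IL1B+Bud, 32.6 with Bud and 8.08 with NS in Ad-IκBαΔN cells, and 158 with IL1B+Bud, 36.7 with Bud and 5.68 with NS in Ad-GFP cells. It was above NS with Bud alone, and its highest value by far was with IL1B+Bud in Ad-GFP cells. R9 had 11.9 with IL1B+Bud, 7.56 with Bud and 8.44 with NS in Ad-IκBαΔN cells, and 74.4 with IL1B+Bud, 4.42 with Bud and 8.38 with NS in Ad-GFP cells. Budesonide alone left R9 no higher than NS in either virus, and a signal stood out in 1 group only. Upstream of ZBTB16, R1 had 11.4 with IL1B+Bud, 10.5 with Bud and 5.69 with NS in Ad-IκBαΔN cells, and 41.4 with IL1B+Bud, 12.4 with Bud and 6.18 with NS in Ad-GFP cells. Its highest value was in that same group, where it was still below the median of all regions.

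**Figure D2:**
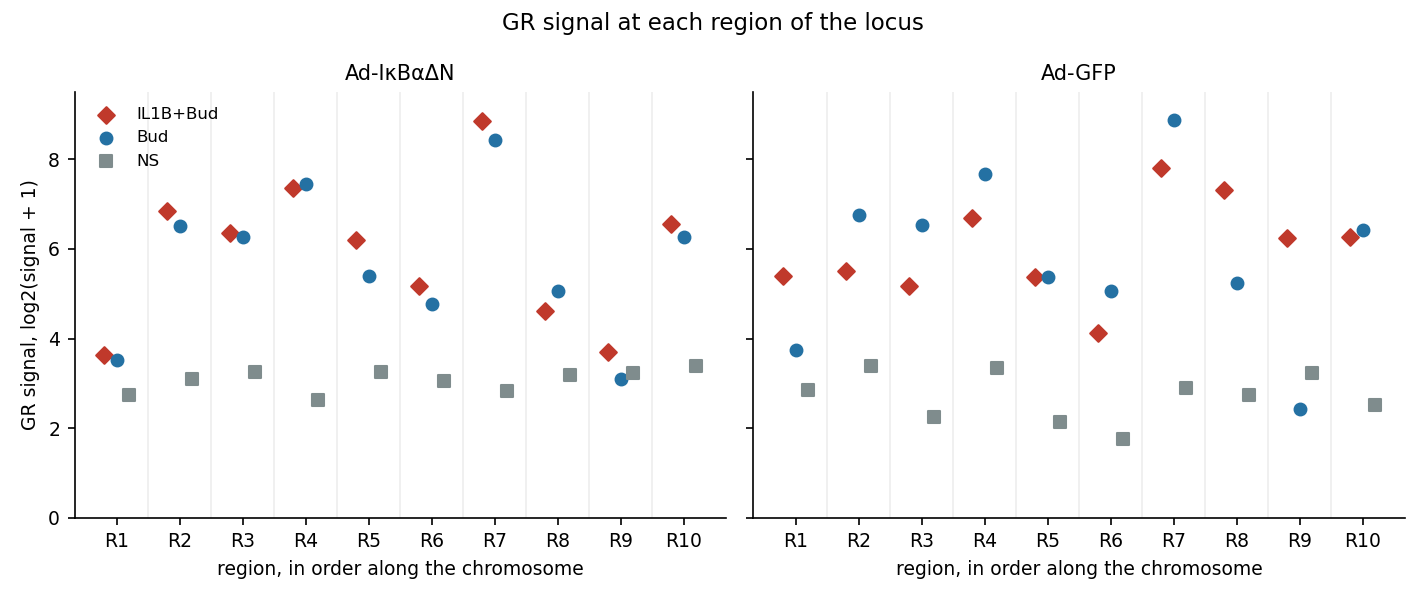
Deposited GR signal, log2(signal + 1), vertical axis, of each region along the chromosome in Ad-IκBαΔN cells (left) and Ad-GFP cells (right). Red diamonds are IL1B+Bud, blue circles Bud and grey squares NS, 1 value per region and group. In Ad-IκBαΔN cells red and blue lie close together, while in Ad-GFP cells red lies above blue at R1, R8 and R9 and below it at R2, R3, R4, R6 and R7.

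In counts, 8 of the 10 regions were at least 2-fold higher with Bud than with NS in Ad-IκBαΔN cells, where 59.3% of all regions were, and the same number in Ad-GFP cells, where 57.9% of all regions were. R1 and R9 were the exceptions in both. None was at least 2-fold lower, as 1.06% of all regions were in Ad-IκBαΔN and 8.14% in Ad-GFP. The median log2 difference of the 10 regions was 2.51 in Ad-IκBαΔN and 3.34 in Ad-GFP, beside 1.37 over all regions in both viruses. With IL1B+Bud against NS, the number at least 2-fold higher was 8 in Ad-IκBαΔN cells, where 69.1% of all regions were, and all 10 in Ad-GFP cells, where 93.7% were. None was at least 2-fold lower with IL1B+Bud than with NS, against 0.0466% of all regions in Ad-IκBαΔN and 0% in Ad-GFP. These counts rest on the deposited scale. The number at least 2-fold higher was also counted after re-centring on all regions, centring on the unchanged class and quantile normalization, in that order. With Bud against NS in Ad-IκBαΔN cells it was 5, 5 and 3, where 2026, 1092 and 2306 of all 10740 regions were higher. With IL1B+Bud against NS in Ad-GFP cells it was 3, 3 and 4, where 2072, 2118 and 2141 were. For IL1B+Bud against NS in Ad-IκBαΔN cells it was 6, 6 and 4, where 1789, 1003 and 2219 were.

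Adding IL1B to budesonide split the locus in Ad-GFP cells. The ZBTB16 intron regions had less signal with IL1B+Bud than with Bud, R5 by a margin near 0 as deposited, while R1, R8 and R9 had more. On the log2 scale R9 differed by 3.80 (13.9-fold), R8 by 2.08 (4.22-fold) and R1 by 1.66 (3.15-fold). The largest difference downwards was at R3, -1.36 (2.57-fold lower with IL1B+Bud), followed by R2 with -1.24 and R7 with -1.07. R4 with -0.98 and R6 with -0.95 lay just inside the 2-fold limit, and R10 had -0.17 and R5 -0.01 as deposited. With the step divided out, R10 had -1.72 and R5 -1.53, and the difference at R1 was 0.14. The count was 3 regions at least 2-fold higher, where 48.9% of all regions were, and 3 at least 2-fold lower, where 6.07% were. All 3 of the higher regions were in the authors' increasing class, in which 93.3% of regions were at least 2-fold higher, and they were not extreme there, R1 at percentile 15.4, R8 at 24.0 and R9 at 78.6 of that class.

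Of the 6 intron regions, 5 were at the low end of their own class. In the unchanged class 117 of 3411 regions (3.43%) were at least 2-fold lower with IL1B+Bud than with Bud in Ad-GFP cells, and R2, R3 and R7 were among them. R3 stood at percentile 0.850 of that class, R2 at 1.44, R7 at 2.55, R4 at 3.64 and R6 at 4.08, while R10 was at 26.9 and R5 at 33.6. The signal with Bud is part of this difference, and no comparison was made with regions of like Bud signal. A drop was not particular to the locus. Regions of high Bud signal linked to FKBP5, ZFP36, HIF3A and ZBTB7B, described below, had -0.92, -1.14, -1.66 and -1.01, while one linked to ZBTB38 had 0.41. R7 ranked 284 of 10740 with IL1B+Bud, against 16 with Bud, in Ad-GFP cells. The signs of all 10 differences in Ad-GFP cells were the same under each of the scalings tried. The median over all regions went from 0.92 as deposited to -0.12 re-centred, 0.42 centred on the unchanged class, -0.13 quantile normalized and -0.61 with the step divided out. These scalings thus moved differences downwards, and a pseudocount cannot turn a sign. The negative signs had little room to turn, so the check bears mainly on R1, R8 and R9. The count of lower regions reached 7 after re-centring on all regions or division by the step. Of all 10740 regions, 3443 and 4695 were lower there. That of higher regions was 1 after quantile normalization or division by the step, where 2744 and 3253 of all regions were higher. It was 2 after re-centring on all regions, where 3972 were.

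**Figure D3:**
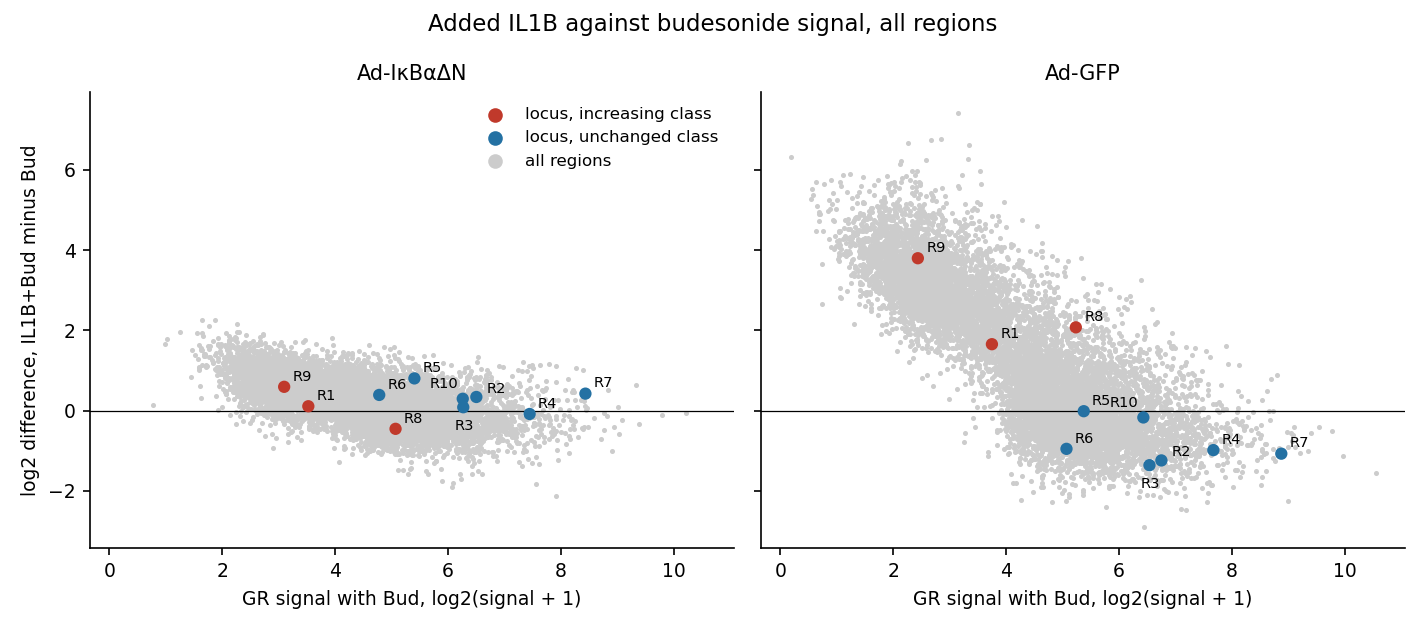
Difference between IL1B+Bud and Bud (log2, vertical axis) against the deposited signal with Bud (log2(signal + 1), horizontal axis) for all 10740 regions in grey, in Ad-IκBαΔN cells (left) and Ad-GFP cells (right). Members are red (increasing class) or blue (unchanged class). The signal with Bud enters both axes. In Ad-GFP cells R2, R3, R4, R6 and R7 lie in the lower part of the cloud, and in Ad-IκBαΔN cells all members lie between -0.45 and 0.80.

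In Ad-IκBαΔN cells no region of the locus differed by 2-fold in either direction between IL1B+Bud and Bud, where 9.65% of all regions were higher and 0.94% lower. The log2 differences ran from -0.45 at R8 to 0.80 at R5, with 0.59 at R9, 0.11 at R1, 0.42 at R7, 0.34 at R2, 0.09 at R3 and -0.08 at R4. The median over the 10 regions was 0.32, beside 0.26 over all regions. R8, which was higher with IL1B+Bud in Ad-GFP cells, was at percentile 2.07 of the increasing class in Ad-IκBαΔN cells. The sign was the same under each scaling tried at R4, R5 and R8 but not at the other 7 regions. The other scalings lowered the median over all regions here too, so the negative signs at R4 and R8 had little room to turn.

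**Figure D4:**
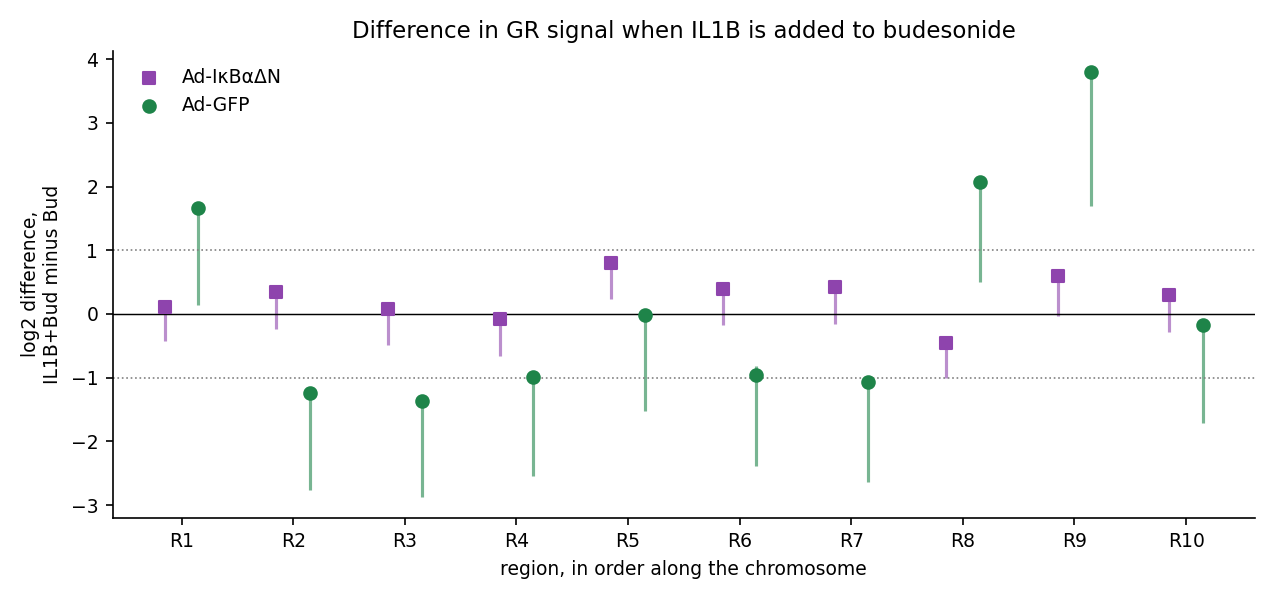
IL1B+Bud minus Bud in log2 units (vertical axis) at each region (horizontal axis), purple squares for Ad-IκBαΔN cells and green circles for Ad-GFP cells. Vertical lines run from the lowest to the highest value under the scalings tried and are not an error of measurement. Dotted lines mark a 2-fold difference. The green points span -1.36 to 3.80 and the purple points -0.45 to 0.80.

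Set directly against Ad-GFP, the viruses differed at the locus where IL1B was present. With IL1B+Bud, R2, R3, R6 and R7 had at least 2-fold more signal in Ad-IκBαΔN than in Ad-GFP cells, 4 of 10 regions where 5.97% of all regions were. The log2 differences were 1.33 at R2, 1.17 at R3, 1.05 at R6 and 1.05 at R7, with 0.85 at R5, 0.67 at R4 and 0.29 at R10. The regions R8, R9 and R1 were at least 2-fold lower, by -2.69, -2.54 and -1.77, 3 of 10 where 46.5% of all regions were. R1 was within the 2-fold limit under other scalings, -0.85 re-centred on all regions, -0.95 quantile normalized and -0.78 with the step divided out. The count lower was then 2, where 2619, 2606 and 2407 of all 10740 regions were. With Bud alone no region of the 10 differed by 2-fold in either direction, where 4.02% of all regions were higher and 0.0186% lower. R7 had the most negative difference with Bud, -0.44, and R9 the highest, 0.66. In NS cells R3, R5 and R6, 3 regions, exceeded their Ad-GFP values by at least 2-fold in Ad-IκBαΔN, where 7.21% of all regions were, and none was lower, where 2.77% were. All NS signals at the locus were between 5.15 and 9.49 in Ad-IκBαΔN cells and between 2.38 and 9.42 in Ad-GFP cells. The count of 3 became 0 with a pseudocount of 5, where 72 of all 10740 regions were higher.

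The ranking of the regions carried the same picture. The order of the 10 regions with Bud was identical in Ad-IκBαΔN and Ad-GFP cells (Spearman's rho 1, Pearson's r 0.99 across the 10 regions, which share libraries and are not replicates). With IL1B+Bud against Bud, rho was 0.96 in Ad-IκBαΔN cells and 0.41 in Ad-GFP cells. Between the viruses with IL1B+Bud it was 0.39, and between them with NS it was -0.47.

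Within the locus, the share of summed signal does not depend on the scale of a group. The ZBTB16 introns held 86.9% of the locus's signal with IL1B+Bud, 85.6% with Bud and 57.7% with NS in Ad-IκBαΔN cells. In Ad-GFP cells they held 56.9% with IL1B+Bud, 87.2% with Bud and 58.1% with NS. R8 and R9 together held 3.32% with IL1B+Bud, 4.57% with Bud and 22.0% with NS in Ad-IκBαΔN cells, against 28.7% with IL1B+Bud, 3.80% with Bud and 23.6% with NS in Ad-GFP cells. In NS all member signals were low, at most 9.49 in Ad-IκBαΔN and 9.42 in Ad-GFP cells. The NS shares were near those that 6 and 2 of 10 equal regions would hold. Ad-GFP cells with IL1B+Bud stood apart from the other 3 groups given budesonide. R7 alone was 19.7 times R8 with IL1B+Bud and 10.6 times R8 with Bud in Ad-IκBαΔN cells, and 1.41 times R8 with IL1B+Bud and 12.8 times R8 with Bud in Ad-GFP cells.

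**Figure D5:**
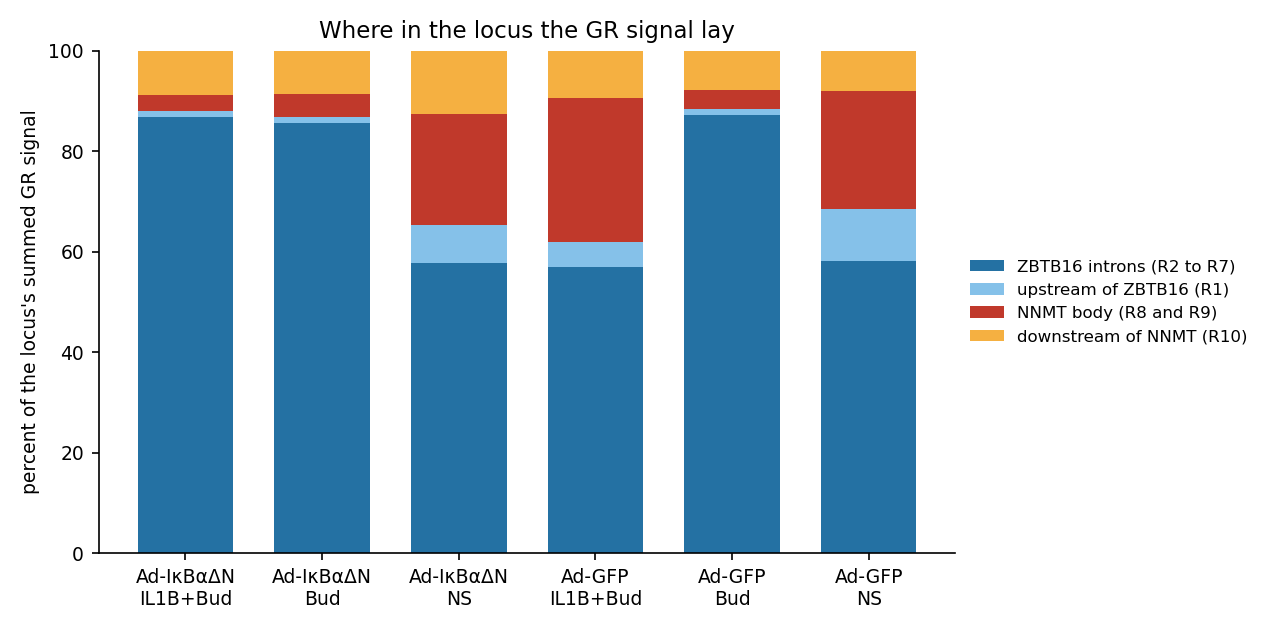
Percent of the summed linear GR signal of the 10 regions that lay in the ZBTB16 introns (R2 to R7), upstream of ZBTB16 (R1), at NNMT (R8 and R9) and downstream of NNMT (R10), for the 6 groups. The red part for R8 and R9 is 28.7% with IL1B+Bud and 3.80% with Bud in Ad-GFP cells. In NS cells the total signal was low, 75.0 in Ad-IκBαΔN and 59.6 in Ad-GFP.

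As a share of the signal of all 10740 regions, the locus held 0.294% with IL1B+Bud, 0.264% with Bud and 0.0877% with NS in Ad-IκBαΔN cells. The shares in Ad-GFP cells were 0.120% with IL1B+Bud, 0.302% with Bud and 0.0684% with NS. The locus is 10 of the 10740 regions and was selected on its signal, so its shares and the density below are only a description. Of 6876 windows of 450 kb along the genome, 119 (1.73%) held at least 10 regions, and windows with any region held a median of 2. The nearest regions outside lay 409 kb before R1 and 1651 kb after R10.

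The regions with a pattern most like that of R7 lay near 5 other genes. By Euclidean distance over the 6 log2 values, among 7564 regions within 100 kb of a protein-coding start, the nearest were linked to FKBP5 (distance 0.46), LEKR1 (0.49), CAMK1G (0.70), DDIT4 (0.87) and ZFAND5 (0.92), beside a median distance of 7.85. FKBP5 encodes a co-chaperone of GR and DDIT4 an inhibitor of mTORC1 signalling. The FKBP5 region (chr6:35722487-35722886) had 404 with IL1B+Bud, 340.1 with Bud and 7.56 with NS in Ad-IκBαΔN cells, and 239.5 with IL1B+Bud, 455 with Bud and 8.10 with NS in Ad-GFP cells. Like R7, it was lower with IL1B+Bud than with Bud in Ad-GFP cells and not in Ad-IκBαΔN cells. Regions were chosen here for being close to R7 in these same 6 values, so that likeness follows from the choice.

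Regions of other genes of the same pathways gave the setting, without a test. For 17 of 18 genes known to be induced by glucocorticoids, 59 regions lay outside the locus. Of these, 42 were at least 2-fold higher with Bud than with NS in each virus, where 59.3% of all regions were in Ad-IκBαΔN and 57.9% in Ad-GFP, and 0 were lower in Ad-IκBαΔN and 4 in Ad-GFP. With IL1B+Bud against Bud in Ad-GFP cells 21 were higher and 8 lower, beside 48.9% and 6.07% of all regions. The median of that last difference was 0.11 over the 59 regions and 0.92 over all regions. The region with the highest budesonide signal in the list was linked to ZFP36, which encodes an RNA-binding protein that destabilises cytokine messages. It had 825 with IL1B+Bud, 883 with Bud and 9.31 with NS in Ad-IκBαΔN cells, and 451 with IL1B+Bud, 997 with Bud and 19.9 with NS in Ad-GFP cells. HIF3A, a member of the hypoxia-inducible factor family, showed -1.66 between IL1B+Bud and Bud in Ad-GFP cells and 0.26 in Ad-IκBαΔN cells.

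Of 48 genes of the BTB zinc-finger family, to which ZBTB16 belongs, 12 had linked regions outside the locus, 22 in all. With Bud against NS, 19 of them in Ad-IκBαΔN cells and 17 in Ad-GFP cells were higher by at least 2-fold, beside 59.3% and 57.9% of all regions. With IL1B+Bud against Bud, 2 were higher and none lower in Ad-IκBαΔN cells, beside 9.65% and 0.94% of all regions. In Ad-GFP cells 8 were higher and 1 lower, beside 48.9% and 6.07%. The lower one was linked to ZBTB7B, a regulator of T-cell lineage choice, with a log2 difference of -0.57 in Ad-IκBαΔN cells and -1.01 in Ad-GFP cells. ZBTB38, a protein that binds methylated DNA, had -0.59 in Ad-IκBαΔN cells and 0.41 in Ad-GFP cells, and BCL6, a transcriptional repressor, had -0.32 in Ad-IκBαΔN cells and -0.33 in Ad-GFP cells.

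Among 24 genes of nicotinamide, NAD and methyl-group metabolism, the pathway of NNMT, 7 had linked regions outside the locus, 18 in all. With IL1B+Bud against Bud, 1 was at least 2-fold higher and none lower in Ad-IκBαΔN cells, beside 9.65% and 0.94% of all regions, and 6 were higher and 1 lower in Ad-GFP cells, beside 48.9% and 6.07%. The 1 higher in Ad-IκBαΔN cells and the 1 lower in Ad-GFP cells are near those shares. NAMPT, the rate-limiting enzyme of NAD salvage from nicotinamide, had 205 with IL1B+Bud, 134 with Bud and 7.60 with NS in Ad-IκBαΔN cells, and 126 with IL1B+Bud, 169 with Bud and 8.78 with NS in Ad-GFP cells. AHCYL1, related to S-adenosylhomocysteine hydrolase, differed by 0.64 between IL1B+Bud and Bud in Ad-IκBαΔN cells and by -0.03 in Ad-GFP cells. AOX1, an aldehyde oxidase that acts on methylated nicotinamide, differed by 0.19 in Ad-IκBαΔN cells and by 0.94 in Ad-GFP cells.

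The counts of members with a GRE or a κB consensus were near the shares of all regions. A GRE with at most 2 mismatches was in 2 of the 10 regions, R4 and R5, and in 14.7% of all 10740 regions. R7 had none that close, but it had 4 half-sites (AGAACA or TGTTCT, counted after seeing the data), a number reached by 48 of 10740 regions (0.447%). At least 1 half-site was in 8 of the 10 regions and in 41.8% of all regions, and R6 and R8 held none. Windows of the same width 5 kb upstream of each region held a GRE in 2.84% of cases and a half-site in 27.2%.

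A κB consensus, searched on both strands, was in R1 and R9 and in no other member, 2 of 10 regions beside 21.3% of all 10740. It was in 40.3% of all regions of the increasing class, 11.8% of the unchanged class, 4.49% of the decreasing class and 3.72% of the upstream windows. TGACTCA, the AP-1 motif, was in none of the 10 regions on either strand and in 22.8% of all regions. The element TGACGTCA of R8 was in 1.26% of all regions and 0.140% of upstream windows. A match describes letters in the window and does not show that a factor was bound there.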

How the data were processed

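GR ChIP-seq values of 6 groups of A549 cells were used. The 12 RELA and 2 input libraries of the 26 in the labels were not analysed here. Bowtie2 2.4.4, MACS2 2.2.7.1, DiffBind 3.2, SAMtools, bcl2fastq, FastQC 0.10.1 and the build GRCh38 (hg38) are named in the submitters' processing notes. The authors deposited log2 binding intensities, 1 per region and group. The sources used here do not say what they were scaled to, or how a group's 2 libraries were joined. After 2 was raised to each value and 1 subtracted, the result times 400 fell on whole multiples of 1 (within 0.0001 steps) in Ad-IκBαΔN cells given Bud and in Ad-GFP cells given Bud or NS (99.99% of regions in the last). With IL1B+Bud the step was 1.5 in Ad-IκBαΔN cells and 3 in Ad-GFP cells, and none was found in Ad-IκBαΔN NS cells. Depth is unknown, so no interval is given.

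Regions were counted where the size of the log2 difference reached 1, over all 10740 regions. The alternatives were 4 other scalings (re-centring on all regions, centring on the unchanged class, quantile normalization, division by the step), a pseudocount of 5 and leaving out the 25% of regions with the lowest mean. The counting was tested on simulated data. Regions were linked to the nearest protein-coding start within 100 kb in GENCODE 44. A GRE allowed 2 mismatches. Regions given in full were those of highest Bud signal, largest Bud minus NS and highest and lowest IL1B+Bud minus Bud in Ad-GFP cells, and those nearest each gene's start. The other members are given by their values too. The members and gene lists were chosen with earlier results of these data known. The tools were matplotlib 3.10.9, pandas 2.3.3, numpy 2.4.6, scipy 1.17.1 and Python 3.11.15.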

Additional observations from a re-analysis of the deposited data

Results flagged for a closer look

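At 7 regions the response to added IL1B (IL1B+Bud minus Bud, log2) had opposite signs in Ad-IκBαΔN and Ad-GFP cells. The difference between the viruses' responses, Ad-IκBαΔN minus Ad-GFP, was 1.58 at R2, 1.44 at R3, 0.82 at R5, 1.34 at R6, 1.496 at R7, 0.47 at R10 and -2.53 at R8. Among all regions, R2, R3, R6 and R7 stood at percentiles 97.8, 96.8, 96.0 and 97.3 of this difference. R5 stood at 88.8, R10 at 81.7 and R8 at 20.1. How many of all regions had opposite signs was not counted, so the count of 7 has no background share. The differences between the viruses' responses were not tested, since each group has 1 value per region. At R2, R3, R6, R7 and R10 the sign in Ad-IκBαΔN cells was not the same under every scaling tried, and at R5 the response in Ad-GFP cells was -0.01. At R8 both signs were kept under every scaling tried, but the negative one in Ad-IκBαΔN cells had little room to turn, since the scalings moved differences downwards.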

How the results depend on the processing

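No paired analysis was possible because the table holds 1 value per group, and for the same reason no replicate could be left out. Of the differences between IL1B+Bud and Bud in Ad-GFP cells, the 10 signs were the same under the 4 other scalings and the pseudocount of 5, with R9 between 1.70 and 3.80, R8 between 0.51 and 2.08 and R1 between 0.14 and 1.66. The negative signs at the other regions had little room to turn, since the 4 scalings lowered the median difference over all regions. The count at least 2-fold lower was 7 after re-centring on all regions or division by the step, and 5 after centring on the unchanged class or quantile normalization. Of all 10740 regions, 3443, 4695, 1750 and 2888 were lower in those settings, in that order. The count higher was 1 after quantile normalization, division by the step, or without the 25% of regions of lowest mean, a filter that left 8 members. Of all regions in those settings, 2744, 3253 and 2799 were higher. After re-centring on all regions the count higher was 2, where 3972 of all regions were. In Ad-IκBαΔN cells division by the step made 1 region lower, where 1078 of all regions were.

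For Bud against NS in Ad-IκBαΔN cells the count higher was 5 after re-centring, 5 after centring on the unchanged class and 3 after quantile normalization. Of all 10740 regions, 2026, 1092 and 2306 were higher there. The count lower in either virus was 1, 2 and 1 under those scalings. Of all regions 2923, 3989 and 2343 were lower in Ad-IκBαΔN cells, and 3500, 4374 and 2418 in Ad-GFP cells. For IL1B+Bud against NS in Ad-GFP cells the count higher was 3, 3 and 4 under them, where 2072, 2118 and 2141 of all regions were. In Ad-IκBαΔN cells it was 6, 6 and 4, where 1789, 1003 and 2219 of all regions were higher, and 7 with the step divided out, where 5042 were. The count lower there was 1, 2 and 1, where 1413, 3041 and 2279 of all regions were. For Ad-IκBαΔN against Ad-GFP with IL1B+Bud the count higher was 7 after re-centring or division by the step, where 2729 and 2758 of all regions were. The count lower was 1 with the filter, where 2757 of the regions kept were. It was 2 after re-centring, quantile normalization or division by the step, where 2619, 2606 and 2407 of all regions were. In NS it was 0 higher with a pseudocount of 5 and 1 lower after quantile normalization, where 72 and 2114 of all regions were.

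Signs turned at R2 for IL1B+Bud against NS in Ad-GFP cells (-0.31 re-centred, -0.29 centred on the unchanged class, -0.44 quantile normalized) and at R6 (-0.081 re-centred, -0.060 centred on the unchanged class). At R6 Bud against NS in Ad-IκBαΔN cells became -0.12 when centred on the unchanged class. At R8 IL1B+Bud against NS in Ad-IκBαΔN cells became -0.051 re-centred, -0.50 centred on the unchanged class and -0.16 quantile normalized. Differences under 2-fold as deposited turned too. Centred on the unchanged class, Bud against NS at R1 went to -1.06 in Ad-IκBαΔN cells and -1.02 in Ad-GFP cells, and IL1B+Bud against NS in Ad-IκBαΔN cells to -1.04 at R1 and -1.48 at R9, where the deposited differences were 0.78, 0.91, 0.89 and 0.45. A GRE with at most 1 mismatch was in 0 members and one with at most 3, chosen after seeing the data, in 5, against 3.43% and 45.1% of all regions.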
